A study of Mus musculus with 20 samples.

Results

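The ABC efflux transporters described here are 10 genes whose proteins use ATP to carry lipids, bile constituents, drugs and conjugates out of cells: Abca1, Abcb1a, Abcb4, Abcc2, Abcc3, Abcc4, Abcc6, Abcg2, Abcg5 and Abcg8. They were picked by symbol from the 25444 loci of the count table, and all 10 passed the filter on low counts, which left 13704 genes. Liver RNA was sequenced from 20 mice at 20 weeks of age, with 5 mice in each of 4 groups: B6 females, B6 males, C3 females and C3 males. B6 stands for C57BL/6N, a strain with few spontaneous liver tumors, and C3 for C3H/HeN, a strain prone to them. The labels name no engineered allele and no treatment, each mouse was housed singly, and every library came from the left lateral lobe of 1 mouse. Males and females were kept in separate rooms, so that sex and room cannot be told apart.

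ABC transporters pair ATP-binding domains, which are alike across the family, with membrane-spanning domains that set what is carried. In the hepatocyte, some members sit on the canalicular membrane and build bile by exporting phospholipid, sterols and conjugates, while others sit on the basolateral membrane and return solutes to blood. Abcg proteins carry a single copy of each domain and work only as dimers. Sex differences of liver transporters in rodents are known, many of them tied to the sex-dependent pattern of growth hormone release.

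Sequences of the mm9 genome are given for the genes on which the results turn. Abcg5 and Abcg8 encode the partners of 1 heterodimer and lie on opposite strands of chromosome 17. The stretch between the first base of Abcg5 and the first base of the annotated transcript Abcg8-001, chr17:85082352-85082460 on the plus strand, is 109 bases long and lies before the start of each. The counted Abcg8 locus starts further back, at base 85075642, and so contains this stretch and part of Abcg5. The stretch is shown because it precedes both starts, and capitals mark GATAA and TATAAA, both read here from the opposite strand.
Abcg5-Abcg8: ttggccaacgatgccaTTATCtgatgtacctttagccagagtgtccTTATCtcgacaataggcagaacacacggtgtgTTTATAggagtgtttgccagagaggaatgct
It held GATAA 2 times and TATAAA 1 time. Among the 24604 windows of the same length before gene starts, 8.47% held GATAA and 6.11% held TATAAA, on either strand.

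For the 3 genes with the widest sex differences among the other members, the 250 bases before the start given in the table are shown on the strand of the gene. Capitals mark AGGTCA and GGGCGG, including their reverse complements. The windows were chr6:58546416-58546665 on the plus strand for Abcg2, chr5:8659842-8660091 on the plus strand for Abcb1a and chr14:119105442-119105691 on the minus strand for Abcc4.
Abcg2: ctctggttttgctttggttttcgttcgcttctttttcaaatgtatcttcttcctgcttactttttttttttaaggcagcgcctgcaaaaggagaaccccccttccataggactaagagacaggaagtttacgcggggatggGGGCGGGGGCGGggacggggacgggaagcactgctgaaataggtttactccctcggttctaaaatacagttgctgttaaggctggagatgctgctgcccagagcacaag
Abcb1a: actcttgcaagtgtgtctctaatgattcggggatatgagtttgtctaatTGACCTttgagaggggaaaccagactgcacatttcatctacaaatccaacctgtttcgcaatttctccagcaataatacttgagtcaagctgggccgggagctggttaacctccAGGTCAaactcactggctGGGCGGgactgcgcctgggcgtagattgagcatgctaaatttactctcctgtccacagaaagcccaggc
Abcc4: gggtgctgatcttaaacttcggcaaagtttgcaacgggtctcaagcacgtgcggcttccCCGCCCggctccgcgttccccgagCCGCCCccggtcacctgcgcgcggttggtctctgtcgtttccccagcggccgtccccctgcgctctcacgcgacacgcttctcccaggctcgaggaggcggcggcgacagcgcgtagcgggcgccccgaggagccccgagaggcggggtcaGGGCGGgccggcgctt
GGGCGG, the core of GC boxes, occurred 2 times before Abcg2, 1 time before Abcb1a and 3 times before Abcc4, and 40.7% of all windows of 250 bases held it. AGGTCA, the core that many nuclear receptors bind, occurred 2 times before Abcb1a and in 12.7% of all windows. TTCNNNGAA, the form of STAT sites, was found in none of the stretches shown. Of all windows, 6.84% of those of 250 bases and 2.72% of those of 109 bases held it. The motifs do not overlap with one another in these stretches, and each match is a description of the letters only.

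Abcb1a lies beside its copy Abcb1b and the more distant Abcb4 on chromosome 5. The coding sequences of Abcb1a and Abcb1b were identical at 88.2% of aligned bases, and those of Abcb1a and Abcb4 at 77.0%. A 60-base stretch in exon 12 of 28, which codes for the first ATP-binding loop (Walker A), is shown as an example of likeness. In this stretch, which is shorter than a read, Abcb1a and Abcb1b are identical and Abcb4 differs at 4 positions. The stretch lies on the plus strand at chr5:8702189-8702248 in Abcb1a, chr5:8824509-8824568 in Abcb1b and chr5:8920371-8920430 in Abcb4, and capitals mark the 4 positions that vary.
Abcb1a: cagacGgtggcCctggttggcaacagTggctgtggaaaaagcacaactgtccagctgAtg
Abcb1b: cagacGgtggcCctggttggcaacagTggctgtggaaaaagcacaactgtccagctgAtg
Abcb4: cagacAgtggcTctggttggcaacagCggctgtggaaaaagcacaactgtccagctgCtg
Of the 125-base windows of Abcb1a, the read length, 7.12% occurred unchanged in Abcb1b and 0 in Abcb4. Reads mapping to several places were left out of the counts, and the part of these shared windows in the values below was not tested.

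Between 27370921 and 46835745 read pairs were counted per liver, and depth followed the sequencing pool. Levels in CPM are counts over the total of the genes tested, scaled with TMM factors. Xist stood at 381 CPM or more in every female and at 0.348 CPM or less in every male. All 9 hepatocyte markers were present, and most of their summed level was Alb. They summed to between 97656 and 130771 CPM in females and 79258 and 107114 CPM in males of B6. In C3 they summed to between 135380 and 163599 CPM in females and 109179 and 135604 CPM in males. The 8 Kupffer cell markers summed to between 457 and 562 CPM in females and 294 and 417 CPM in males of B6, and to between 300 and 439 CPM and 218 and 321 CPM in those of C3. The 8 endothelial markers summed to between 409 and 527, 343 and 423, 381 and 491, and 347 and 423 CPM in the same order, and the 6 stellate cell markers to between 501 and 607, 405 and 462, 418 and 453, and 347 and 396 CPM. The 6 cholangiocyte markers summed to 43.9 CPM at most. Of the 7 erythroid markers in the table, the 4 globin genes were listed at 0 in every liver and the others summed to 1.74 CPM at most. The median log2 fold change of females over males was 0.26, 0.51 and 0.37 for endothelial, Kupffer and stellate markers in B6 and 0.26, 0.38 and 0.27 in C3, while cholangiocyte markers had 0.04 and 0.45. Hepatocyte markers had a median of -0.15 in B6 and -0.24 in C3. Of C3 over B6 the median was -0.73, -0.34, -0.22 and -0.01 for Kupffer, stellate, endothelial and cholangiocyte markers in females, and -0.48, -0.22, -0.22 and -0.45 in males. For hepatocyte markers it was 0.08 in each sex. The part of these cells in the transporter differences was not tested, and in bulk liver fewer cells of a type and less RNA per cell cannot be told apart.

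Compared per gene length, as TPM, Abcc2, Abcb4 and Abcc3 held the first 3 ranks by mean in every group. Abcc2, which exports conjugates such as bilirubin glucuronide into bile, averaged 196 ± 10.1 TPM in B6 females and 198 ± 27.6 TPM in B6 males (SD, n = 5). Abcb4, which supplies phosphatidylcholine to bile, averaged 186 ± 38.7 and 174 ± 25.4 TPM in the same groups. The ranges of neighbours among these genes overlapped in every group. Within livers, Abcc2 stood above Abcb4 and Abcb4 above Abcc3 in all 5 B6 males, and Abcc3 held the third rank in all 5 B6 females, while in C3 the order varied between livers. At the other end, Abcb1a and Abcc4 reached 10.7 TPM at most in any liver. Abcg2 changed place with sex: its mean was 8th of 10 in B6 females and 4th in B6 males, and 7th in C3 females and 4th in C3 males. In B6 males its range overlapped that of Abcc3 at the rank above, and Abcc3 stood above Abcg2 in 4 of the 5 livers. In C3 females the range of Abcg2 overlapped that of Abcc6 at the next rank, and in C3 males that of Abca1. The summed level of the 10 genes was 828 ± 100.2 TPM in B6 females, 836 ± 102 TPM in their males, 785 ± 98.2 TPM in C3 females and 689 ± 71.3 TPM in theirs. Abcg2 supplied 4.28% ± 0.224 of that sum in females and 13.8% ± 2.10 in males of B6, and 3.61% ± 0.404 and 13.4% ± 1.32 in those of C3.

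**Figure D1:**
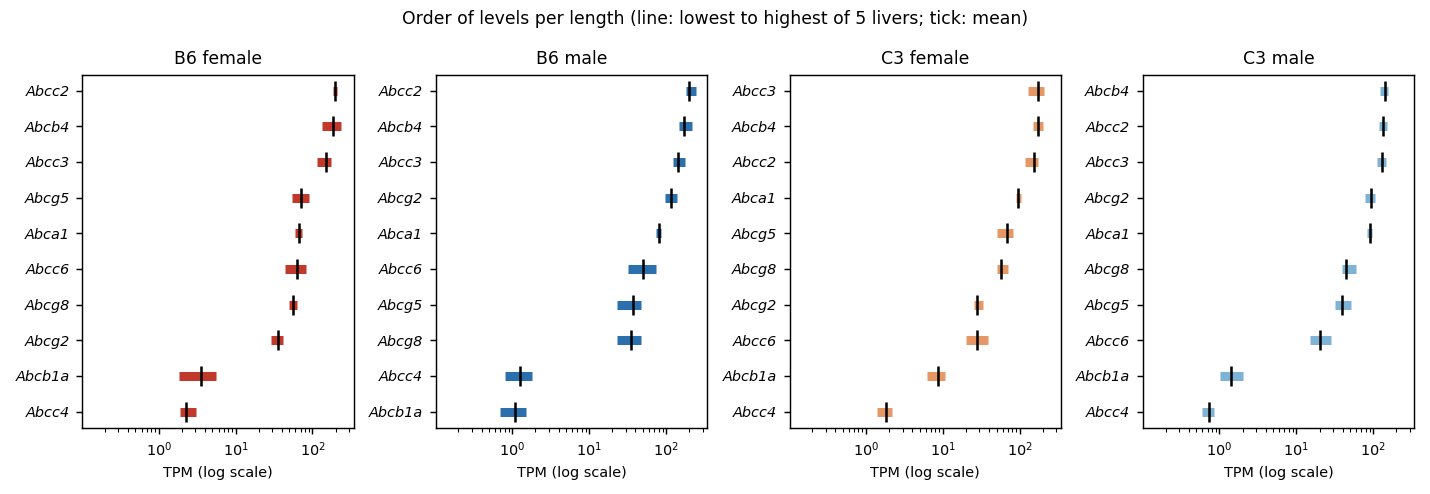
Levels of the 10 transporters per gene length in each group, on a log scale of TPM, ordered by mean; lines run from the lowest to the highest of 5 livers and ticks mark the mean. Abcc2, Abcb4 and Abcc3 lead in every group, Abcb1a and Abcc4 are last, and Abcg2 stands at 35.5 TPM in B6 females and at 115 TPM in B6 males.

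The comparison of females with males asked which transporters are sex-biased in each strain. A gene was called when its adjusted p was under 0.001 (edgeR's quasi-likelihood test, Benjamini-Hochberg over 13704 genes) and its log2 fold change exceeded 0.5. In B6, 4 of the 10 members were called, against 6.34% of all genes tested, and in C3 again 4, against 6.90%. The same 4 were called with the same sign in B6 and C3, as were 3.25% of all genes. Abcb1a, Abcc4 and Abcg5 were female-biased, 3 of 10 against 3.23% of all genes in B6 and 4.11% in C3. Abcg2 was male-biased, 1 of 10 against 3.12% and 2.79%. The median log2 fold change of the 10 members was 0.10 in B6 and 0.27 in C3, beside medians of 0.002 and 0.01 over all genes. The groups of 5 livers did not overlap for 4 members in B6 (Abca1, Abcb1a, Abcg2, Abcg5), against 10.9% of all genes, and for 3 in C3 (Abcb1a, Abcc4, Abcg2), against 13.1%.

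**Figure D2:**
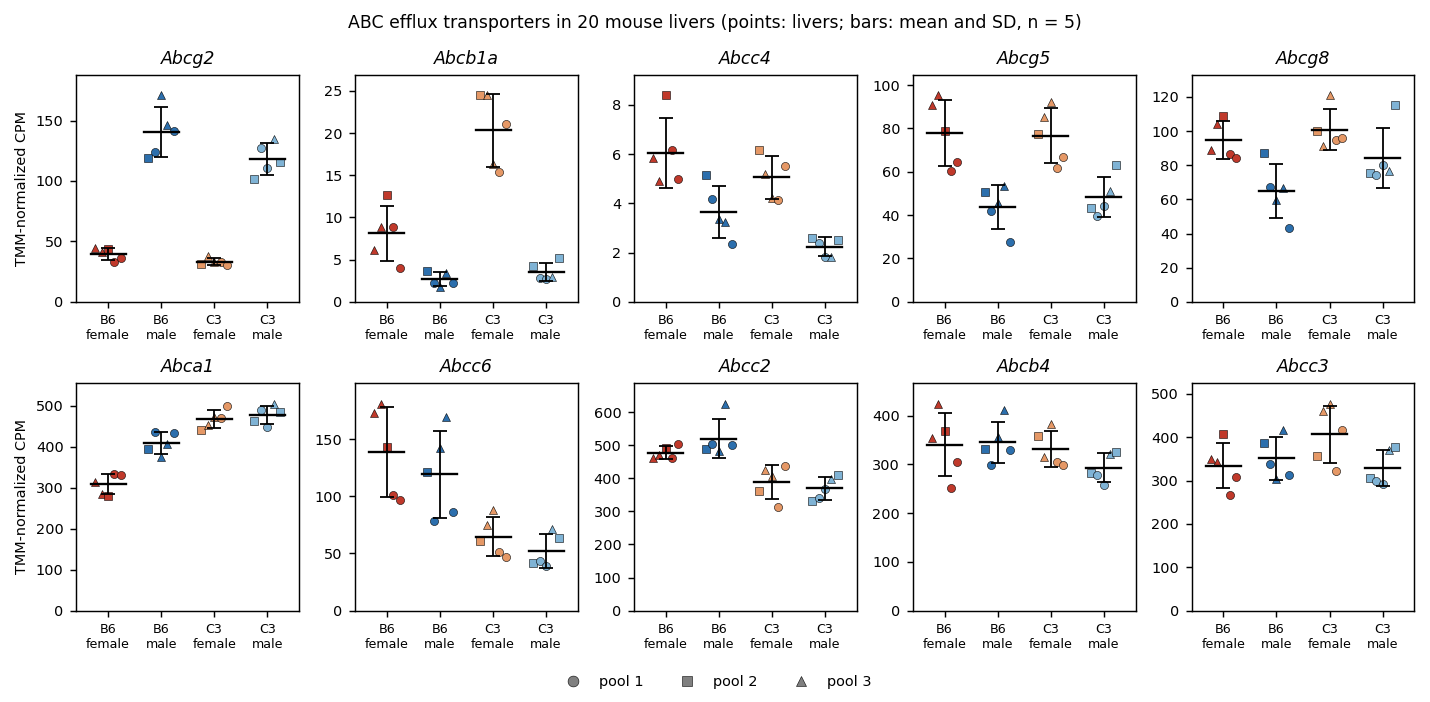
TMM-normalized CPM of each transporter in every liver (points, shaped by sequencing pool), with the mean and SD of each group of 5; each panel has its own axis from 0. The 10 females lie between 30.1 and 44.8 CPM for Abcg2 and the 10 males between 102 and 171 CPM, while Abcb4 and Abcc3 overlap in all groups.

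Abcg2, the breast cancer resistance protein, a homodimer that exports urate, porphyrins and sulfated conjugates, had the clearest sex difference. Levels below are again CPM scaled with TMM factors. In B6 females Abcg2 measured 44.8, 41.0, 43.5, 33.3 and 36.6 CPM, and in B6 males 119, 124, 171, 146 and 141 CPM. In C3 females it measured 31.6, 37.8, 33.1, 33.2 and 30.1 CPM, and in C3 males 102, 127, 111, 135 and 116 CPM. Every male lay above every female of either strain. Expression was 3.51-fold lower in females in B6 (log2 fold change -1.81 ± 0.08 SE, adjusted p = 6.8e-12, edgeR) and 3.67-fold lower in C3 (-1.88 ± 0.08, adjusted p = 5.7e-12). Within the 3 sequencing pools the log2 fold change was -1.92, -1.45 and -1.88 in B6 and -1.91, -1.78 and -1.93 in C3. The difference between the strains in this effect was -0.06, with a 95% interval from -0.30 to 0.17. Sex took 95.5% of the variance of log2 CPM over the 20 livers, the largest share that any single factor took in a member.

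Abcb1a encodes P-glycoprotein, the canalicular pump for many drugs. It measured 6.18, 8.85, 12.7, 8.89 and 4.03 CPM in B6 females and 3.65, 2.26, 1.71, 3.43 and 2.24 CPM in B6 males. In C3 it measured 24.5, 24.5, 16.4, 15.4 and 21.1 CPM in females and 4.26, 2.88, 2.67, 2.92 and 5.14 CPM in males. Females exceeded males within each strain without overlap, narrowly in B6, and C3 females stood above all other livers. The female level was 3.01-fold higher in B6 (log2 fold change 1.59 ± 0.21, adjusted p = 1.3e-05, edgeR) and 6.32-fold higher in C3 (2.66 ± 0.21, adjusted p = 2.4e-08). The effect of sex was larger in C3 by 1.07 ± 0.29 on the log2 scale, but this interaction was not called (adjusted p = 0.054, edgeR). Within pools the sex effect was 1.41, 1.80 and 1.60 in B6 and 2.70, 2.38 and 2.77 in C3. When B6 females and males were fitted without the other livers, the adjusted p was 0.001 and the call was lost.

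Abcb1b, the copy, had its higher mean in males. Its mean was 1.24 ± 0.324 CPM in B6 females and 2.49 ± 1.32 CPM in B6 males, and 0.414 ± 0.0865 CPM in C3 females and 1.46 ± 0.357 CPM in C3 males (SD, n = 5). It was called lower in C3 females than in C3 males (log2 fold change -1.88 ± 0.36, adjusted p = 0.00057, edgeR). In B6 the 95% interval of its log2 fold change ran from -1.61 to -0.39, with an adjusted p of 0.013, and it was not called. The TPM ratio of Abcb1a to Abcb1b averaged 6.17 ± 2.82 in females against 1.31 ± 0.983 in males of B6, and 44.7 ± 13.1 against 2.27 ± 0.910 in C3. In B6 males its median was 0.839, and it was under 1 in 3 of the 5 livers. The female and male ranges of this ratio overlapped in B6, between 2.05 and 2.49. They lay apart in C3, where the lowest female was at 24.8 and the highest male at 3.56. The ratios of C3 females rest on few reads, since Abcb1b was counted there at 11 to 18 read pairs per liver.

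Abcc4 exports cyclic nucleotides, conjugates and bile acids across the basolateral membrane, and was among the lowest members. It measured 5.84, 4.89, 8.39, 6.15 and 4.98 CPM in B6 females and 5.16, 4.16, 3.38, 3.23 and 2.36 CPM in B6 males. In C3 it measured 6.18, 5.19, 4.21, 4.14 and 5.52 CPM in females and 2.59, 2.39, 1.83, 1.81 and 2.53 CPM in males. The sexes overlapped in B6 and were apart in C3. Females were 1.65-fold higher in B6 (log2 fold change 0.72 ± 0.13, adjusted p = 0.00042, edgeR) and 2.44-fold higher in C3 (1.29 ± 0.14, adjusted p = 2.1e-06), with an interaction of 0.56 ± 0.19 that was not called (adjusted p = 0.14). The call in B6 was lost without pool in the model (adjusted p = 0.015, edgeR). It was also lost without any one of B6 females 1, 3 and 4 or B6 males 3 and 4. There edgeR's adjusted p was 0.0017, 0.0019, 0.0015, 0.0013 and 0.0013. A fit of the B6 livers alone (0.004, edgeR) and a test against the fold threshold (0.26, edgeR's glmTreat) lost the call too. Abcc4 also overlaps the microRNA gene Mir6391 by 104 bases on the same strand.

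Abcg5 and Abcg8 form the dimer that secretes sterols into bile. Abcg5 measured 90.6, 95.3, 78.9, 60.5 and 64.5 CPM in B6 females and 50.7, 41.7, 45.4, 53.3 and 27.5 CPM in B6 males. In C3 it measured 77.3, 85.4, 92.1, 61.9 and 66.7 CPM in females and 43.2, 39.7, 44.4, 51.1 and 63.3 CPM in males. Only C3 male 5 reached into the female range. Females were 1.78-fold higher in B6 (log2 fold change 0.83 ± 0.10, adjusted p = 8.1e-06, edgeR) and 1.56-fold higher in C3 (0.64 ± 0.11, adjusted p = 0.00018). Livers of pool 3 lay above those of pool 1 in all 4 groups, by 0.46 on average on the log2 scale. Without pool in the model edgeR's calls were lost in B6 (adjusted p = 0.0027) and in C3 (adjusted p = 0.012), and the C3 call was also lost without C3 male 4 (0.0014) and in a fit of the C3 livers alone (0.0011). Within pools the sex effect stayed between 0.64 and 0.92 in B6 and between 0.56 and 0.80 in C3.

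Abcg8 had the same sign and missed the threshold. It measured 89.0, 104, 109, 86.5 and 84.3 CPM in B6 females and 87.2, 67.0, 59.5, 66.9 and 43.5 CPM in B6 males. In C3 it measured 100, 91.4, 121, 94.7 and 95.7 CPM in females and 75.2, 74.5, 79.9, 76.5 and 115 CPM in males. In each strain 1 male lay inside the female range. The log2 fold change was 0.55 ± 0.12 in B6 (adjusted p = 0.0022, edgeR) and 0.31 ± 0.13 in C3 (adjusted p = 0.059). DESeq2 called the B6 difference, at an adjusted p of 0.00016. Limma on log2(TPM + 1) and log2(TPM + 0.1) called it too, at 0.67 and 0.69 (adjusted p = 0.00062 and 0.00061). The TPM ratio of Abcg5 to Abcg8 averaged 1.28 ± 0.211 in females against 1.06 ± 0.147 in males of B6, and 1.19 ± 0.167 against 0.896 ± 0.0832 in C3. The female and male ranges of the ratio overlapped in each strain. The genes overlap by 6710 bases on opposite strands, and the counts were made by strand.

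The other 5 members were not called between the sexes. Abca1, which passes cholesterol and phospholipid to apolipoprotein A-I, measured 313, 285, 280, 334 and 330 CPM in B6 females and 394, 436, 374, 407 and 432 CPM in B6 males. The B6 sexes did not overlap, and the log2 fold change of -0.41 ± 0.05 had an adjusted p of 1.7e-05 (edgeR) but lay inside the fold threshold. In C3 the sex difference of Abca1 was -0.04 ± 0.06. The interaction of 0.36 ± 0.08 had an adjusted p of 0.013 (edgeR) and was not called. Abcc6, which mediates ATP release from hepatocytes and is the gene of pseudoxanthoma elasticum, had a log2 fold change of 0.23 in each strain, with a 95% interval of 0.05 to 0.41 in B6 and of 0.04 to 0.42 in C3. For Abcb4, Abcc2 and Abcc3 the intervals in B6 ran from -0.20 to 0.14, -0.30 to 0.06 and -0.29 to 0.14. In C3 they ran from -0.01 to 0.33, -0.13 to 0.25 and 0.08 to 0.52. Abcc3, the basolateral exporter of glucuronides, had 0.30 ± 0.10 in C3, with an adjusted p of 0.027.

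**Figure D3:**
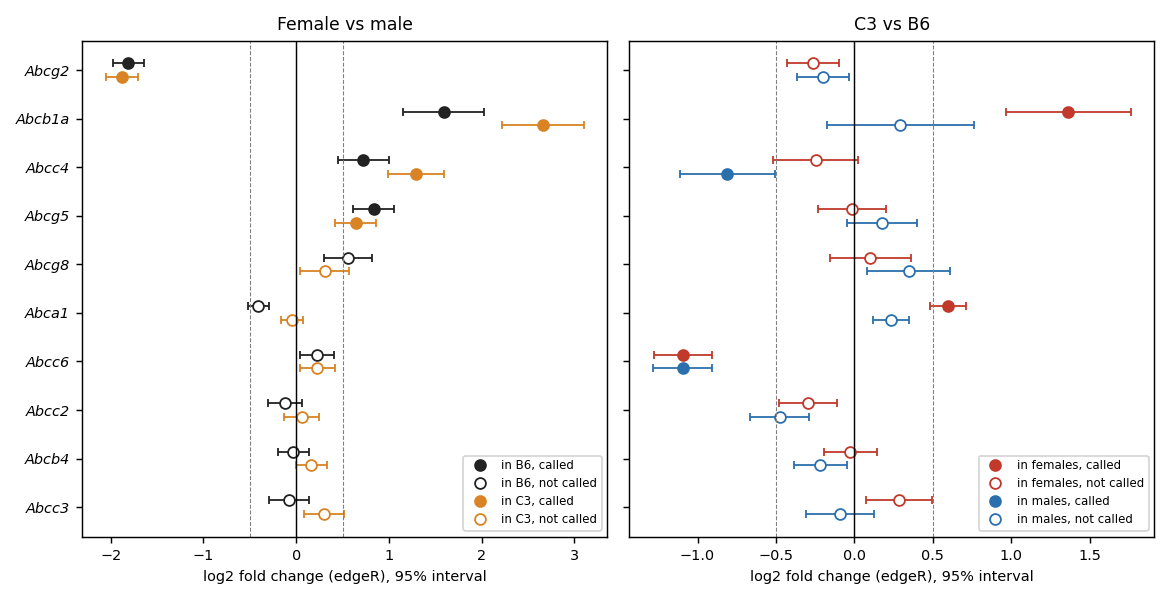
log2 fold changes of the 10 transporters from edgeR with 95% intervals, between the sexes in each strain (left) and between the strains in each sex (right); filled points were called, and dashed lines mark 0.5 in either direction. Abcg2 lies at -1.81 and -1.88 between the sexes, and Abcc6 at -1.09 in both sexes between the strains.

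The comparison of C3 with B6 asked which transporters differ between the strains. Reads of both strains were aligned to mm9, which derives from a B6 strain, and the part of the reference in these differences was not tested. The strain comparisons use the same livers as the sex comparisons and are not independent of them. In females 3 of 10 members were called, against 9.40% of all genes, and in males 2, against 9.64%. Abca1 and Abcb1a were higher in C3 females, where 4.63% of all genes were called higher, and Abcc6 was lower, where 4.77% were. In C3 males no member was higher, against 4.09% of all genes, and Abcc4 and Abcc6 were lower, against 5.55%. Only Abcc6 was called with the same sign in both sexes, as were 6.22% of all genes. The median log2 fold change of the members was -0.02 in females and -0.15 in males, beside 0.02 and 0.01 over all genes. The strains did not overlap for 4 members in females (Abca1, Abcb1a, Abcc2, Abcc6), against 12.8% of all genes, and for 3 in males (Abca1, Abcc2, Abcc6), against 15.1%.

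Abcc6 had the widest strain difference seen in both sexes. It measured 173, 181, 143, 101 and 96.5 CPM in B6 females and 61.3, 75.3, 88.4, 51.5 and 47.0 CPM in C3 females. In males it measured 121, 78.4, 142, 170 and 86.2 CPM in B6 and 42.1, 43.8, 39.1, 71.7 and 63.5 CPM in C3. The strains did not overlap within either sex, although livers of 1 group differed widely. C3 was 2.13-fold lower in females (log2 fold change -1.09 ± 0.09, adjusted p = 1.7e-08, edgeR) and 2.13-fold lower in males (-1.09 ± 0.09, adjusted p = 2e-08). Livers of pool 3 exceeded those of pool 1 in all 4 groups, by 0.82 on average on the log2 scale, and pool took 25.7% of the variance. Without pool in the model the adjusted p was 0.003 in females and 0.0014 in males, and both calls were lost. Within pools the strain effect was -1.01, -1.22 and -1.12 in females and -0.99, -1.23 and -1.11 in males.

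Abca1 measured 440, 452, 473, 470 and 498 CPM in C3 females and 462, 490, 448, 504 and 484 CPM in C3 males. All 10 C3 livers, from 440 to 504 CPM, lay above all 10 B6 livers, from 280 to 436 CPM. C3 was 1.51-fold higher in females (log2 fold change 0.60 ± 0.05, adjusted p = 7.9e-08, edgeR), and in males the change was 0.24 ± 0.06 with an adjusted p of 0.0027 and no call. Apoa1, its lipid acceptor, was called higher in C3 in both sexes, by 0.84 ± 0.11 in females and 0.71 ± 0.12 in males (adjusted p = 1.3e-05 and 9.9e-05, edgeR). Of the 8 Kupffer cell markers, 5 were called lower in C3 in females and 3 in males, against 4.77% and 5.55% of all genes. The part of Kupffer cells in the Abca1 difference was not tested.

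Abcb1a was 2.57-fold higher in C3 than in B6 females (log2 fold change 1.36 ± 0.19, adjusted p = 1.8e-05, edgeR). In males the log2 fold change was 0.29 ± 0.22, with a 95% interval from -0.17 to 0.76. The call in females was lost in edgeR fits without pool (adjusted p = 0.0011) and in a fit of the females alone (0.0013). Within pools the female values were 1.59, 0.94 and 1.44.

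Abcc4 was 1.75-fold lower in C3 than in B6 males (log2 fold change -0.81 ± 0.15, adjusted p = 0.00025, edgeR), although the ranges overlapped, with the lowest B6 male at 2.36 CPM and the highest C3 male at 2.59 CPM. The call was lost without B6 male 1, B6 male 2 or C3 male 4, at an adjusted p of 0.0019, 0.001 and 0.0015, and without pool in the model, at 0.014. A fit of the males alone (0.0039, edgeR) and a test against the fold threshold (0.068, edgeR's glmTreat) lost the call too. With limma on log2(TPM + 1) the log2 fold change was -0.43, inside the fold threshold. In females the log2 fold change was -0.25 ± 0.13, with an interval from -0.52 to 0.03.

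Abcc2 separated the strains but did not reach the fold threshold with TMM factors and all livers. It ran from 460 to 504 CPM in B6 females and from 482 to 625 CPM in B6 males, and from 314 to 438 CPM in C3 females and from 330 to 411 CPM in C3 males. All 10 B6 livers lay above all 10 C3 livers. The log2 fold change was -0.30 ± 0.09 in females (adjusted p = 0.014, edgeR) and -0.47 ± 0.09 in males (0.00042). In males edgeR called it when B6 male 3 (-0.51, adjusted p = 0.00033) or C3 male 5 (-0.52, 0.00029) was left out, and with upper-quartile factors (-0.51, 0.00022). Limma on log2(TPM + 1) and log2(TPM + 0.1) called it too, at -0.53 and -0.54 (adjusted p = 0.00039 and 0.00036). The TPM ratio of Abcc3 to Abcc2, the basolateral to the canalicular exporter of conjugates, averaged 0.755 ± 0.111 in females and 0.729 ± 0.0749 in males of B6, and 1.12 ± 0.0938 and 0.958 ± 0.0624 in those of C3. Its female ranges, up to 0.889 in B6 and from 1.03 in C3, did not overlap, and in males the highest B6 and the lowest C3 liver were 0.856 and 0.857.

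Between the strains Abcb4, Abcc3, Abcg2, Abcg5 and Abcg8 were called in neither sex. Abcb4 ran from 252 to 424 CPM over the 20 livers and Abcc3 from 266 to 477 CPM. Abcg2 was at -0.26 ± 0.08 in females (adjusted p = 0.016, edgeR) and at -0.20 ± 0.08 in males (0.06). For Abcg5 the intervals ran from -0.23 to 0.20 in females and from -0.04 to 0.40 in males, and for Abcg8 from -0.16 to 0.36 and from 0.08 to 0.61.

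No member was called for the sex-by-strain interaction by edgeR, DESeq2 or limma, against 0.401% of all genes in edgeR (0.270% higher and 0.131% lower). At an unadjusted p under 0.05 edgeR had 4 members (Abca1, Abcb1a, Abcc3, Abcc4), against 16.1% of all genes. An adjusted p under 0.05 was reached by Abca1, and by 2.96% of all genes.

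The variance of log2 CPM over the 20 livers was divided in the order sex, strain, their interaction and pool. Sex took 70.3% in Abcb1a, 66.0% in Abcg5, 61.1% in Abcc4 and 38.3% in Abcg8. Strain took 67.3% in Abcc2, 67.0% in Abcc6 and 60.9% in Abca1. In Abcb4 pool took 49.2%, more than sex (3.32%) and strain (10.2%), and its pool 3 livers lay above its pool 1 livers in all 4 groups by 0.31 on average. In Abcc3 the largest part, 42.2%, was left to differences between livers.

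**Figure D4:**
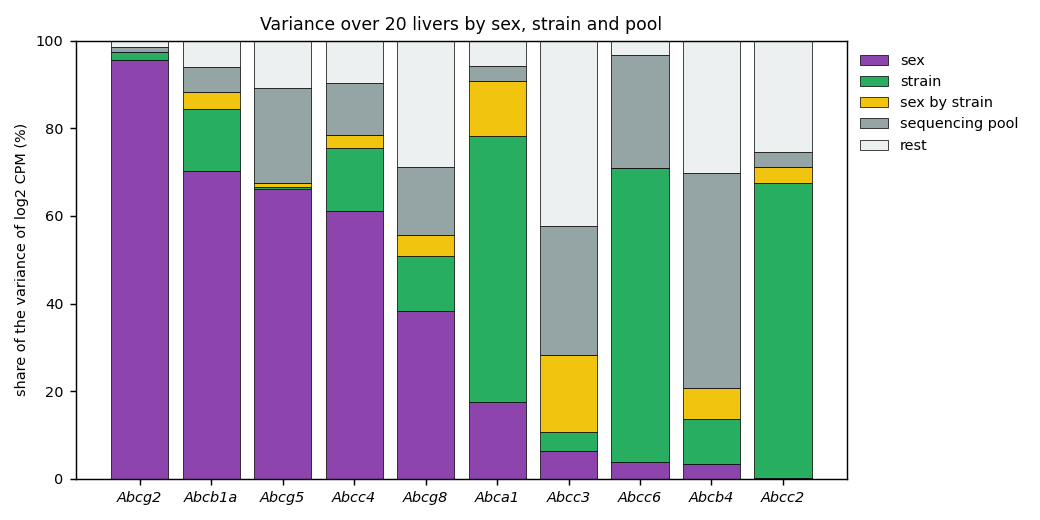
Shares of the variance of log2 CPM over 20 livers taken by sex, strain, their interaction, sequencing pool and the rest, for each transporter. Sex takes 95.5% in Abcg2 and strain 67.0% in Abcc6, while pool takes 49.2% in Abcb4.

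Of the 43 other ABC genes, 33 passed the filter. In B6, 5 of them were female-biased and 2 male-biased, against 3.23% and 3.12% of all genes, and in C3 2 and 2, against 4.11% and 2.79%. Their median log2 fold change was 0.20 in both strains. Abcd2, a peroxisomal importer of very long-chain fatty acids, ran from 105 to 175 CPM in B6 females and from 2.03 to 20.8 CPM in B6 males, and from 131 to 202 CPM in C3 females and from 5.61 to 16.4 CPM in C3 males. It was higher in females by 3.95 ± 0.39 in B6 and 4.29 ± 0.40 in C3 on the log2 scale (adjusted p = 4.4e-07 and 2.2e-07, edgeR). In B6, Abca3 was higher in females by 0.99 ± 0.12 and Abca8b by 0.69 ± 0.07. The rodent gene Abcg3 was called higher in females in both strains, by 0.65 ± 0.10 in B6 and 0.54 ± 0.10 in C3. Abcb10, a mitochondrial transporter, was lower in females by a log2 fold change of -0.95 ± 0.07 in B6 and -0.86 ± 0.07 in C3, and Abcd3, a peroxisomal relative of Abcd2, by -0.51 ± 0.09 in B6.

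Between the strains 3 of the 33 (9.09%) were called in each sex, near the 9.40% of all genes called in females and the 9.64% in males. Abca3, a phospholipid transporter of lamellar bodies, was higher in C3 by 1.74 ± 0.12 in females and 2.38 ± 0.13 in males (adjusted p = 2.6e-09 and 4.7e-11, edgeR). Tap2, part of the antigen peptide transporter, was higher by 0.52 ± 0.09 and 0.66 ± 0.09, and Abca8a was higher in males by 0.72 ± 0.09. Abcg3 was lower in C3 females, at -0.57 ± 0.10. The bile salt export pump Abcb11 was called in none of these comparisons, with 0.20 ± 0.06 in B6 and 0.24 ± 0.06 in C3 between the sexes, and with means from 1113 to 1371 CPM over the 4 groups. Abcg1, which exports cholesterol to lipoproteins, was likewise not called, with 0.43 ± 0.10 and 0.24 ± 0.11 between the sexes.

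**Figure D5:**
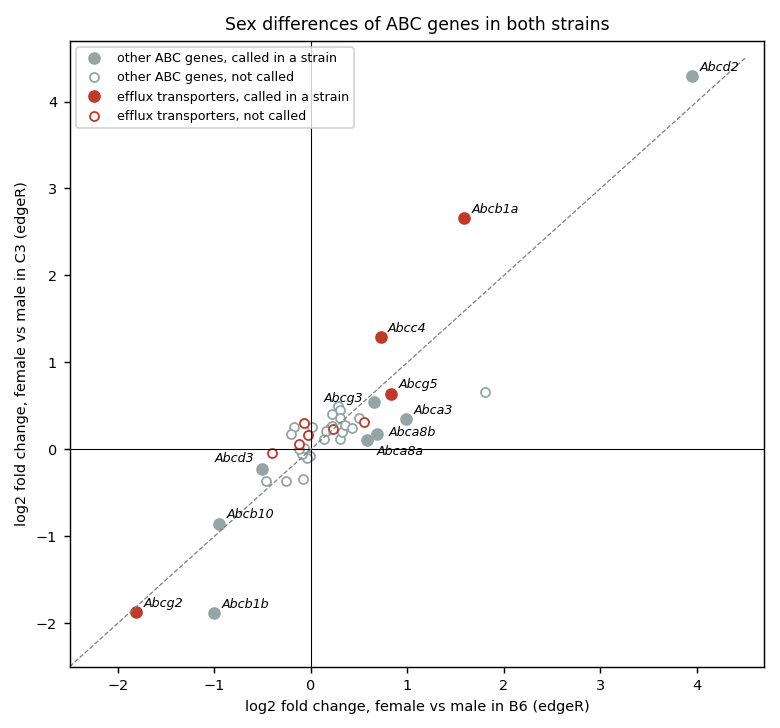
log2 fold change of females over males in B6 (horizontal) and C3 (vertical) from edgeR, for the 10 efflux transporters (red) and the 33 other ABC genes tested (grey); filled points were called in at least 1 strain and the dashed line marks equal effects. Abcd2 (3.95, 4.29) and Abcb1a (1.59, 2.66) lie highest. Abcb1b, at -1.88 in C3, and Abcg2 (-1.81, -1.88) lie lowest.

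Among 15 regulators of transporter genes, which include nuclear receptors, Esr1, the estrogen receptor, was called higher in females by 1.39 ± 0.13 in B6 and 1.01 ± 0.13 in C3 (adjusted p = 1.3e-07 and 7.3e-06, edgeR). None of the 15 was called between the strains by edgeR, with 7 in each sex at an unadjusted p under 0.05, against 41.9% of all genes in females and 44.3% in males, while DESeq2 called Ahr lower in C3 females and Esr1 higher in C3 males. Of 12 genes for partners and scaffolds, 11 were tested. Npc2, a sterol-binding protein secreted into bile, was higher in females by 0.57 ± 0.06 in B6 and 0.50 ± 0.06 in C3, and Ezr, a membrane linker, by 0.77 ± 0.14 in C3. Besides Apoa1, Msn was called between the strains, at -0.53 ± 0.08 in males.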

How the data were processed

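Total RNA of 20 livers was depleted of ribosomal RNA and sequenced as strand-specific paired reads in 3 pools to which libraries were assigned at random. The authors deposited counts of read pairs per gene, with no normalization, after trimming (cutadapt 1.9.1), alignment to mm9 (STAR 2.5.1b) and counting on RefSeq genes (featureCounts of Subread 1.5.0-p1). Multimapping and multi-overlapping reads were left out. TPM values were also deposited by the authors, each count divided by a gene length whose definition is not given in the sources used here. The headers of the symbol and identifier columns are exchanged in the deposited tables, which were read by content. Groups, replicate numbers and pools came from the labels.

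Genes were filtered by filterByExpr on the 4 groups, scaled with TMM and tested in edgeR 4.0.16 (R 4.3.3) by quasi-likelihood, with terms for group and sequencing pool and all 20 livers in 1 fit. From it 5 comparisons were drawn: the sexes within B6 and within C3, the strains within females and within males, and the sex-by-strain interaction. Standard errors are the log2 fold change divided by the root of F, and intervals are at 95%. CPM are counts over the total of the genes tested, scaled with TMM. Counts per liver of a member ran from 61 to 25340, and the errors given hold both counting error and differences between mice. Alternatives were DESeq2 1.42.0, limma 3.58.1 on log2(TPM + 1) and log2(TPM + 0.1), other factors, filters, models and thresholds, and each liver left out. In simulated data for female against male in B6 (13566 genes), 84 of 100 genes changed by a log2 fold change of 1 and 99 of 100 changed by 2 were called, with 0 false calls. For the interaction (13568 genes) these were 68 and 94 of 100, with 0 false calls. The simulated counts held no effect of pool, and only genes with a mean over 1 CPM were changed. These rates therefore need not hold for the real livers, where pool shifted several members.

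Sequences were read from the mm9 genome with GENCODE vM1 transcripts. The members, the lists of other ABC genes, regulators, partners and cell markers, and the tests were chosen with earlier results of these data known. The text names all members, Abcb1b, Abcb11, Abcg1 and, of the other lists, the called genes with the largest change, at most 3 for each list and direction. Genes flagged by the interaction or called by DESeq2 alone were named after their values were seen, and the ratios between members were added then. The methylation data of the study were not analysed here, and 1 gene of the regulator list is not reported here.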

Additional observations from a re-analysis of the deposited data

Results flagged for a closer look

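In 2 of 40 tests of a single far liver, a member stood apart in its group by Dixon's criterion, and chance flags about 1 group in 20. Abcc2 was 625 CPM in B6 male 4 and 504 CPM in the next B6 male, a gap of 0.848 of the range of that group. Abcg8 was 115 CPM in C3 male 5 and 79.9 CPM in the next C3 male, a gap of 0.867 of the range.

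Some sex effects differed between C3 and B6 at an adjusted p under 0.05 in edgeR, none of which met the threshold of 0.001. Abca1 had an interaction of 0.36 (adjusted p = 0.013), Abca5, which was not called in any comparison, 0.43 (0.032), Abca3 -0.64 (0.049), Abca8a -0.48 (0.048) and Abca8b -0.51 (0.0079). DESeq2 called Abca8b for the interaction. The sex effect of Abca8b was 0.69 ± 0.07 in B6 and 0.18 ± 0.07 in C3.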

How the results depend on the processing

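Under alternatives that kept all livers, 503 log2 fold changes of members held their sign and their side of the threshold, 18 lost a call, 7 gained one and 12 changed sign. Members called were 4, 4, 3, 2 and 0 in B6 and C3 between the sexes, in females and males between the strains, and for the interaction. Without pool in the model they were 2 in B6 (Abcb1a, Abcg2), 1 in females (Abca1) and 0 in males, and C3 lost Abcg5. In fits of only the groups compared they were 2 in B6 (Abcg2, Abcg5), 3 in C3 (without Abcg5) and 1 in males (Abcc6). Females lost Abcb1a in these fits. With a test against the fold threshold (glmTreat) they were 2 in B6 (Abcb1a, Abcg2) and 1 in males (Abcc6). That test also lost Abcg5 in C3 (adjusted p = 0.33) and Abca1 in females (0.13). With 1 liver left out the counts ran from 3 to 4 in each strain, stayed at 3 in females and 0 for the interaction, and ran from 1 to 3 in males (1 without B6 male 1, B6 male 2 or C3 male 4).

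Signs that changed were of small, uncalled values. With limma on log2(TPM + 1), Abcb4, Abcc2 and Abcc3 in B6 between the sexes were 0.0829, 0.0004 and 0.0432, and Abca1 in C3 was 0.0679, and with log2(TPM + 0.1) they were 0.0832, 0.0004, 0.0434 and 0.0685. With upper-quartile factors Abcb4 in B6 was 0.0368 and Abca1 in C3 0.0207. The interaction of Abcc6 was 0.0936 without pool and 0.0176 with the replicate block. With 1 liver left out, Abcb4 ran from -0.086 to 0.0331 between the sexes in B6 and from -0.0878 to 0.0308 between the strains in females, Abcc2 from -0.01 to 0.123 in C3, Abcg5 from -0.0381 to 0.0128 in females, and the interactions of Abcc6 from -0.0745 to 0.061 and Abcg2 from -0.108 to 0.0051. The cause was not tested.

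Replicate numbers did not pair the livers (mean correlation of deviations between -0.30 and 0.26). The replicate block kept the members called at 4, 4, 3, 2 and 0, the same genes. Over all genes, calls between the sexes in B6 and C3 numbered 869 and 945, against 421 and 482 without pool and 592 and 625 in the groups alone. They numbered 294 and 314 with glmTreat, and 1753 and 2189 at an adjusted p under 0.05 with the fold threshold kept. Between the strains 1288 and 1321 became 815 and 881, 876 and 1102, 525 and 585, and 2143 and 2327, and the 55 of the interaction 20, 24 (glmTreat), 302 and, with DESeq2, 181. Female-biased genes made up 50.9% and 59.6% of calls between the sexes, and 64.3% and 70.0% with upper-quartile factors. With limma on log2(TPM + 0.1) these shares were 71.6% and 77.4% and the median gene shifted to 0.11 and 0.12.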
